A study of Mus musculus with 40 samples.

Results

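The IL-12 family subunits are the 5 genes *Il12a*, *Il12b*, *Il23a*, *Il27* and *Ebi3*, taken by gene symbol from the 27179 genes of the deposited expression table. All 5 were found as 1 row each, and all 5 passed the filter on low values at every time. RNA-seq was carried out on bone marrow-derived macrophages (BMDMs) in 40 libraries, which hold 4 WT and 4 *Cpeb4*-/- mice at 0, 1, 3, 6 and 9 hr of LPS. The knockout was present in all cells of the mouse, and both genotypes were adult males of a mixed C57BL/6J and 129 background. Marrow from the femur was grown for a week in L-cell conditioned medium, a source of M-CSF, and the cells were left untreated (0 hr) or given 10 ng/ml LPS from *E. coli* 0111:B4. Cells of each mouse supplied 1 library per time, so the 5 libraries of a mouse are not independent. No cage held both genotypes, so genotype and cage cannot be told apart. Each of the 2 batches in the labels held 2 mice of each genotype.

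IL-12 family cytokines are pairs of subunits made by macrophages and dendritic cells after a microbial signal. The p40 subunit, encoded by *Il12b*, is shared: with p35 (*Il12a*) it forms IL-12, which drives interferon-γ production by T and NK cells, and with p19 (*Il23a*) it forms IL-23, which sustains Th17 cells. EBI3 (*Ebi3*) pairs with p28 (*Il27*) to form IL-27, which can restrain as well as promote T cell responses, and with p35 in IL-35. A cell therefore needs both partners, and a change in the mRNA of 1 partner need not change the amount of the cytokine. Neither protein nor secretion was measured here.

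All values are rlog values, which are on a log2 scale and corrected for library size. The rlog transformation pulls low and uncertain counts towards a gene's mean. Differences that start from a low level, such as those against untreated cells, are therefore understated. Differences below are *Cpeb4*-/- minus WT unless stated, with their standard error (SE), and means are given ± SD over 4 mice. A gene is called where its limma p-value, adjusted by the Benjamini-Hochberg method over all genes tested, was under 0.05. For single genes the exact two-sided permutation test of 4 mice against 4 was also run, which can go no lower than p = 0.0286. Levels of 4 and 4 mice that do not overlap give exactly this p, which was not adjusted for the many comparisons made. The share of all genes without overlap was not counted, so non-overlap below is a description of the values.

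The 5 genes lie on 5 chromosomes. In GENCODE M21, on the mm10 build that was used for the libraries, *Il12a* spans chr3:68690644-68698547 on the plus strand and *Il12b* spans chr11:44400063-44414033 on the plus strand. *Il23a* spans chr10:128296139-128298752 and *Il27* spans chr7:126589010-126594941, both on the minus strand, and *Ebi3* spans chr17:55952640-55957022 on the plus strand. *Il27* overlaps *Apobr* on the other strand and *Ebi3* overlaps the antisense gene *Gm16712*. Whether reads were counted by strand was not given in the sources used here, so reads from these overlaps cannot be assigned to 1 gene.

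The 3′-UTRs are shown because AUUUA elements are the sites through which many cytokine mRNAs are bound by stability factors, and CPEB proteins bind U-rich elements such as UUUUAU and UUUUAAU. Other forms that the study counted as such elements, among them UUUUGU, were not searched here. A 3′-UTR without UUUUAU or UUUUAAU may therefore still hold another form. In the longest annotated 3′-UTR, AUUUA occurred 6 times in *Il12a* (497 bases), 6 times in *Il12b* (797 bases), 6 times in *Il23a* (657 bases), 5 times in *Il27* (285 bases) and once in *Ebi3* (245 bases). At least 1 AUUUA was found in 65.2% of the 21004 annotated 3′-UTRs. Among 3′-UTRs within 25% of the same length, as many copies or more were found in 0.721% for *Il12a*, 2.31% for *Il12b*, 1.72% for *Il23a*, 0.397% for *Il27* and 29.7% for *Ebi3*. The longer form UUAUUUAUU, which overlaps AUUUA, was found in *Il12a* (1 copy), *Il23a* (1 copy) and *Il27* (2 copies), and in 7.67% of all 3′-UTRs. Among those of like length, as many copies or more were found in 2.72%, 3.84% and 0.497%, in the same order. UUUUAU was found in *Il12a* alone of the 5 (1 copy, against 51.6% of all 3′-UTRs and 32.7% of those of like length) and UUUUAAU in *Il12b* alone (1 copy, against 28.5% and 19.4%). Only the sense strand was searched, and a match is a description of the letters, not a site shown to be bound. The stretches of 30 bases with the most AUUUA are printed 5′ to 3′ in DNA letters, with ATTTA in capitals:
*Il12a*, chr3:68698436-68698465, plus strand: ctATTTAtATTTATTTAttttctATTTAtt
*Il12b*, chr11:44413473-44413502, plus strand: ATTTAagtaATTTAtgtATTTAttaATTTA
*Il23a*, chr10:128296179-128296208, minus strand: tgatggttATTTAttctATTTAtaaggaat
*Il27*, chr7:126589087-126589116, minus strand: gatATTTAtttcttggatATTTATTTAttt
*Ebi3*, chr17:55956972-55957001, plus strand: gtgaactttgtgATTTAattagaaagacgg
*Il12a* and *Il12b* hold 4 copies in the printed stretch, *Il27* holds 3, *Il23a* holds 2 and *Ebi3* holds 1.

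The targeted gene did not separate the labels at every time. *Cpeb4* read 10.42, 10.67, 10.09 and 10.62 in WT libraries at 6 hr and 8.87, 9.45, 9.66 and 8.74 in *Cpeb4*-/- libraries, a difference of −1.27 ± 0.19 (SE; adjusted p = 0.00114, limma). At 0 hr the WT libraries read 8.13, 7.88, 7.03 and 7.81 and the *Cpeb4*-/- libraries 7.42, 7.87, 6.88 and 7.74. At 1 hr the WT libraries read 9.35, 9.46, 7.68 and 8.08 and the *Cpeb4*-/- libraries 8.22, 9.35, 9.07 and 9.41. At 3 hr the WT libraries read 9.26, 10.06, 8.82 and 10.88 and the *Cpeb4*-/- libraries 9.15, 9.47, 9.18 and 9.02. At 9 hr the WT libraries read 8.97, 8.94, 8.89 and 9.41 and the *Cpeb4*-/- libraries 7.87, 9.27, 8.83 and 9.02. The genotypes overlapped at 0, 1, 3 and 9 hr, and *Cpeb4* was called at 6 hr only. Which exons are deleted is not given in the sources used here, so a gene-level value may include exons outside the deletion and does not check the labels. The genotypes below are therefore those of the labels.

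All 8 macrophage markers were expressed, and all 5 T and NK cell and all 4 B cell markers were under the filter (a mean rlog of log2 of 5). *Flt3*, *Cd209a* and *Siglech* of the dendritic cell markers and *Ly6g*, *Elane* and *Mpo* of the neutrophil markers were also under it. The other 3 dendritic cell markers moved in different directions between genotypes. *Clec9a* was called higher in *Cpeb4*-/- at 0 hr (0.88, adjusted p = 0.0441, limma), *Zbtb46* was called higher at 3 hr (1.10, adjusted p = 0.00679), and *Xcr1* was called lower at 6 hr (−0.49, adjusted p = 0.0124). The summed dendritic cell markers, on a log2 scale, were 6.83 to 7.29 in WT and 6.59 to 6.87 in *Cpeb4*-/- libraries at 6 hr, and 6.32 to 6.70 and 6.19 to 6.22 at 9 hr. Back-transformed values were summed, so this mostly follows *Xcr1*, which averaged 6.81 in WT at 6 hr. *Clec9a* and *Zbtb46* averaged 3.48 and 2.19 in WT and were higher in *Cpeb4*-/- libraries at 6 hr, at 3.82 and 2.49. None of the 3 neutrophil markers tested was called between genotypes at any time. The summed macrophage markers, on a log2 scale, were 18.98 to 19.29 in untreated WT and 18.65 to 18.91 in untreated *Cpeb4*-/- libraries. At 6 hr they were 19.24 to 19.32 against 18.92 to 19.14. This sum mostly follows *Lyz2*, which averaged 18.53 in untreated WT and 18.03 in untreated *Cpeb4*-/- libraries. The next highest, *Csf1r*, averaged 15.71 and 15.60. In untreated cells *Itgam* (0.17) and *Mertk* (0.06) were higher in *Cpeb4*-/- without a call, and the other markers were lower. Of the 8, 4 were called lower in *Cpeb4*-/- at 6 hr (*Csf1r*, *Cd68*, *Fcgr1* and *Lyz2*, where 9.92% of all genes were called lower). At 0, 1, 3 and 9 hr, 1, 1, 2 and 3 of them were called lower (against 0.565%, 0.938%, 1.87% and 3.22% of all genes), and at no time was one called higher. The part of these marker shifts in the results for the subunits was not tested. In bulk libraries, fewer cells that express a gene and less RNA per cell cannot be told apart.

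**Figure D1:**
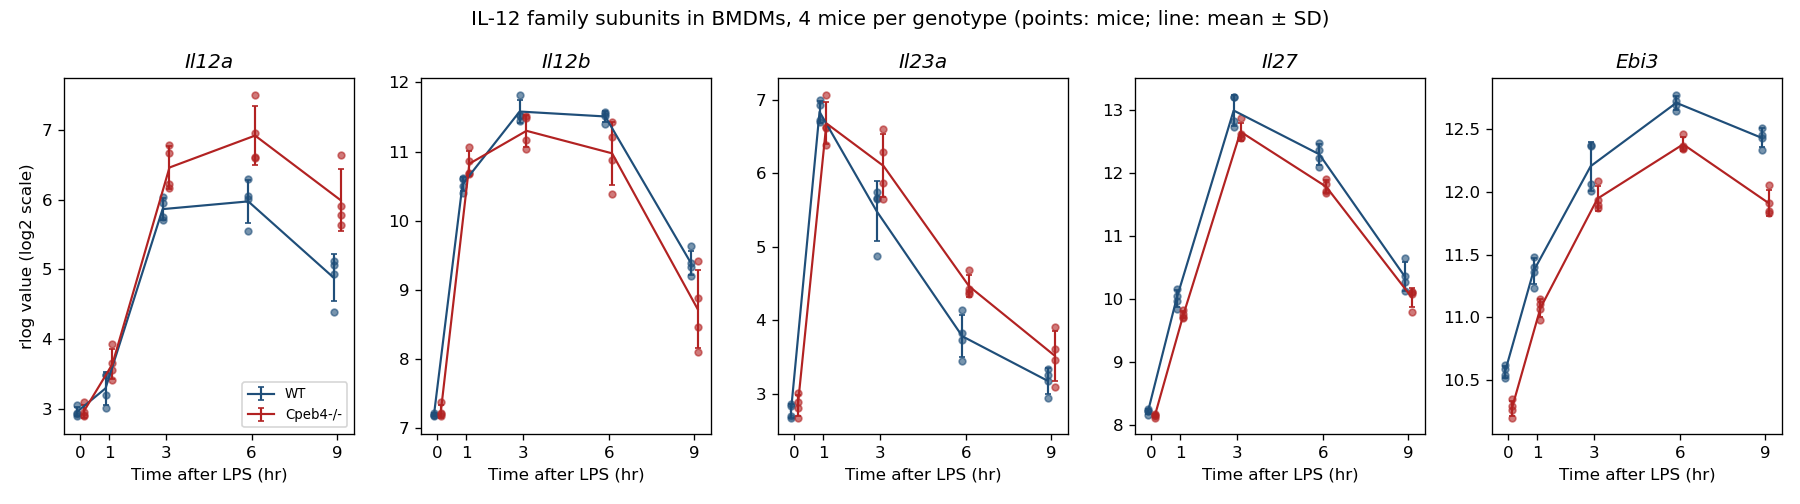
Each panel plots the rlog value (log2 scale) of 1 subunit against hours of LPS, with points for mice and lines for the mean ± SD of 4 mice per genotype. *Il23a* was highest at 1 hr, *Il27* at 3 hr and *Ebi3* at 6 hr in both genotypes. *Il12a* was called higher in *Cpeb4*-/- (red) than in WT (blue) at 6 and 9 hr, and *Ebi3* was called lower at 0, 1, 6 and 9 hr. Neither was called at 3 hr (adjusted p = 0.056 and 0.128, limma).

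LPS raised all 5 subunits in WT BMDMs, each on its own schedule. *Il23a* was already at its highest at 1 hr, *Il27* at 3 hr, *Il12b* at 3 or 6 hr, *Il12a* mostly at 6 hr and *Ebi3* at 6 hr. Against untreated cells, 4 of the 5 were called higher in WT at 1 hr (19.4% of all genes tested were), and all 5 at 3 hr (33.5%), 6 hr (39.7%) and 9 hr (37%). In *Cpeb4*-/- BMDMs all 5 were called higher at 1 hr (22.6% of all genes), 3 hr (33.7%), 6 hr (38.4%) and 9 hr (35.7%). From 6 to 9 hr, all 5 were called lower in WT (29.5% of all genes) and all 5 in *Cpeb4*-/- (26.6%), and the WT call for *Ebi3* was lost after quantile normalization (−0.027, adjusted p = 0.756, limma). The WT call for *Il23a* at 9 hr against 0 hr (0.41, adjusted p = 0.0481) was lost without WT mouse 25, 69 or 88 (adjusted p of 0.111 to 0.14) and without the filter on low values (0.0779). From 1 to 3 hr, *Il23a* was called lower and the other 4 higher in both genotypes, where 29.3% of all genes were called higher and 33.7% lower in WT and 29.5% and 32.7% in *Cpeb4*-/-. The *Cpeb4*-/- calls of this step were lost for *Il23a* without mouse 2 (−0.44, adjusted p = 0.0771) and for *Il12b* without mouse 2 (0.48, adjusted p = 0.0511), without mouse 55 (0.42, adjusted p = 0.0949) or in a fit of the 20 *Cpeb4*-/- libraries alone (adjusted p = 0.0636). From 3 to 6 hr, *Ebi3* was called higher and *Il23a* and *Il27* lower in both, where 34.8% and 32% of all genes were in WT and 31.7% and 31.3% in *Cpeb4*-/-.

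The order of the subunits by abundance changed with time. To compare genes, rlog values were set per kilobase of the longest coding transcript. In untreated WT cells the levels per kilobase were 10.36 for *Ebi3*, 8.19 for *Il27*, 6.24 for *Il12b*, 2.58 for *Il12a* and 2.32 for *Il23a*. At 1 hr *Il23a* stood at 6.39 and *Il12a* at 2.92. At 3 hr *Il27* led at 12.96, followed by *Ebi3* at 12, *Il12b* at 10.62, *Il12a* at 5.48 and *Il23a* at 5.04. *Il12a* and *Il23a* lay close together at 3 hr, with SDs of 0.16 and 0.41, and their order was not tested. Before the length correction *Il12a* read 5.76, 5.71, 5.95 and 6.04 and *Il23a* 5.75, 5.67, 5.66 and 4.87 in the same WT libraries. *Il12a* was the higher in each. At 6 hr *Ebi3* (12.51 ± 0.05) and *Il27* (12.27 ± 0.17) were neighbours whose libraries overlapped, and *Il12b* followed at 10.55. Within each WT library *Ebi3* was above *Il27*, by 0.21 to 0.63 before the length correction. At 9 hr the levels were 12.23 for *Ebi3*, 10.33 for *Il27*, 8.43 for *Il12b*, 4.50 for *Il12a* and 2.73 for *Il23a*.

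*Il23a*, the p19 subunit, was highest at 1 hr, the earliest LPS time sampled, and declined from there. It was still called above untreated cells at 3 and 6 hr in both genotypes. In WT it read 2.83, 2.70, 2.86 and 2.67 at 0 hr and 6.73, 6.99, 6.70 and 6.93 at 1 hr, a rise of 4.07 ± 0.19 (SE; adjusted p = 5.29e-20, limma). Every LPS library at 1 hr was above every untreated library in both genotypes. It then fell by 1.35 ± 0.19 from 1 to 3 hr (adjusted p = 7.61e-08), by 1.70 ± 0.19 from 3 to 6 hr (adjusted p = 5.17e-10) and by 0.61 ± 0.19 from 6 to 9 hr (adjusted p = 0.00574). Back-transformed, the WT level was 40.8 ± 12.1% of each mouse's highest value at 3 hr, 12.1 ± 1.7% at 6 hr and 7.92 ± 0.88% at 9 hr. In *Cpeb4*-/- these shares were 68.8 ± 18.8%, 21.6 ± 2.2% and 11.3 ± 1.9%. At 6 hr the shares did not overlap, since the highest of 4 WT mice was at 14.4% and the lowest of 4 *Cpeb4*-/- mice at 19.1%.

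*Il27*, the p28 subunit, rose later and further. The 4 WT mice read 8.22, 8.23, 8.26 and 8.17 at 0 hr and 13.20, 12.83, 13.21 and 12.72 at 3 hr. The rise was 4.77 ± 0.10 in WT (27.3-fold on the rlog scale, adjusted p = 1.18e-30, limma) and 4.50 ± 0.10 in *Cpeb4*-/- (22.6-fold, adjusted p = 5.84e-30). All 8 mice peaked at 3 hr. By 9 hr the level was 16.4 ± 4.1% of the peak in WT and 16.3 ± 1.8% in *Cpeb4*-/-.

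*Ebi3* had the smallest range of the 5 and was already high in untreated cells. In WT its level rose by 2.15 ± 0.07 from 0 to 6 hr (4.44-fold, adjusted p = 4.26e-26, limma) and in *Cpeb4*-/- by 2.11 ± 0.07 (4.32-fold, adjusted p = 8.45e-26). All 8 mice peaked at 6 hr. The 9 hr level was 82.4 ± 3.9% of the peak for WT mice and 72.2 ± 2.5% for *Cpeb4*-/- mice, and the mice did not overlap (77.9 to 87.1% against 70.0 to 75.3%).

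*Il12b*, the shared p40 subunit, reached a plateau. It rose by 3.33 ± 0.18 in the first hour in WT (10.1-fold, adjusted p = 3.91e-18, limma) and by another 1.05 ± 0.18 from 1 to 3 hr (adjusted p = 2.74e-06). From 3 to 6 hr the change was −0.07 ± 0.18 (adjusted p = 0.734), and from 6 to 9 hr it fell by 2.12 ± 0.18 (adjusted p = 1.32e-12). In *Cpeb4*-/- the change from 3 to 6 hr was −0.33 (adjusted p = 0.105, or 0.0144 with the mouse as a block), and without mouse 3 it was −0.42 (adjusted p = 0.0211). Of 4 WT mice, 2 peaked at 3 hr and 2 at 6 hr, whereas all 4 *Cpeb4*-/- mice peaked at 3 hr. In *Cpeb4*-/- the level at 1 hr was 72.1 ± 6.1% of the peak, against 47.7 ± 4.6% in WT, and the mice did not overlap (63.5 to 77.2% against 42.7 to 53.3%). The 6 hr level was 80.7 ± 13.6% of the peak in *Cpeb4*-/- mice and 94.0 ± 7.6% in WT mice.

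*Il12a*, the p35 subunit, was low for the first hour. In WT its change at 1 hr was 0.34 ± 0.20 (adjusted p = 0.185, limma), and in *Cpeb4*-/- it rose by 0.67 ± 0.20 (adjusted p = 0.00522). By 3 hr it had risen by 2.90 ± 0.20 in WT (7.46-fold) and by 3.49 ± 0.20 in *Cpeb4*-/- (11.2-fold). From 3 to 6 hr the change was 0.11 ± 0.20 in WT (adjusted p = 0.632) and 0.46 ± 0.20 in *Cpeb4*-/- (adjusted p = 0.0412, which rose to between 0.0679 and 0.0838 without any 1 of the 4 *Cpeb4*-/- mice and was 0.0705 without the filter and 0.0627 in a fit of the 20 *Cpeb4*-/- libraries alone), and the difference between these 2 changes was not called (0.35 ± 0.28, adjusted p = 0.637, where 0.923% of all genes were). Of the WT mice 3 peaked at 6 hr and 1 at 3 hr, and all 4 *Cpeb4*-/- mice peaked at 6 hr.

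**Figure D2:**
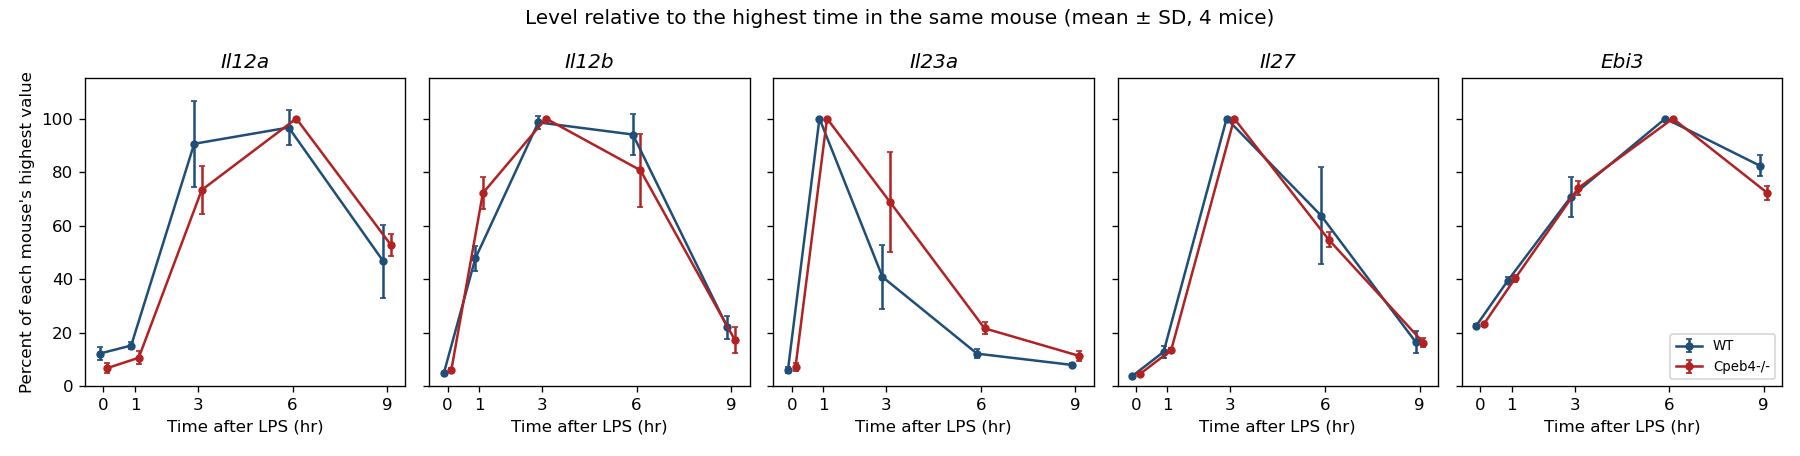
The back-transformed level of each subunit is plotted as a percent of the same mouse's highest value against hours of LPS, as the mean ± SD of 4 mice. *Il23a* declined to 12.1% of its peak by 6 hr in WT (blue) and to 21.6% in *Cpeb4*-/- (red). *Ebi3* declined least, to 82.4% and 72.2% at 9 hr.

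The genotypes were then compared at each time, the question being when in the response these mRNAs differed between them. The 5 subunits moved in opposite directions at 6 hr. *Il12a* and *Il23a*, the partners of p40, were called higher in *Cpeb4*-/- BMDMs (2 of 5, where 6.4% of 13039 genes were called higher). *Il12b*, *Il27* and *Ebi3* were called lower (3 of 5, where 9.92% were). At 9 hr *Il12a* remained called higher (1 of 5, against 4.69% of 13008 genes) and *Ebi3* lower (1 of 5, against 3.22%). At 0 hr *Ebi3* was called lower (1 of 5, against 0.565%) and none was called higher (against 0.741%). At 1 hr *Ebi3* was again called lower (1 of 5, against 0.938%) and none higher (against 0.976%). At 3 hr none was called in limma, higher (against 1.81%) or lower (against 1.87%). The unadjusted exact permutation p at 3 hr was 0.0286 for *Il12a*, 0.0857 for *Il27* and *Ebi3*, 0.114 for *Il23a* and 0.143 for *Il12b*. At 6 hr it was 0.0286 for *Il12a*, *Il23a*, *Il27* and *Ebi3*. For *Il12b* at 6 hr it was 0.0571, above 0.05 although limma called that difference. At 9 hr it was 0.0286 for *Il12a*, *Il27* and *Ebi3*, 0.114 for *Il12b* and 0.143 for *Il23a*.

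*Il12a* carried the largest difference. At 3 hr the WT mice read 5.76, 5.71, 5.95 and 6.04 and the *Cpeb4*-/- mice 6.22, 6.78, 6.66 and 6.17. At 6 hr the WT mice read 5.55, 6.29, 6.01 and 6.04 and the *Cpeb4*-/- mice 6.61, 7.50, 6.95 and 6.59. At 9 hr the WT mice read 5.12, 5.07, 4.94 and 4.39 and the *Cpeb4*-/- mice 5.63, 6.64, 5.90 and 5.79. At each of these times every *Cpeb4*-/- mouse was above every WT mouse. The difference was 0.60 ± 0.15 at 3 hr (SE; adjusted p = 0.056, limma), 0.94 ± 0.20 at 6 hr (1.92-fold, adjusted p = 0.00786) and 1.11 ± 0.23 at 9 hr (2.16-fold, adjusted p = 0.0172). Within batches it was 1.25 and 0.63 at 6 hr and 1.46 and 0.76 at 9 hr, in batches 1 and 2. Untreated cells differed by 0.01 ± 0.13 (adjusted p = 0.979). Mouse 3 was the highest *Cpeb4*-/- library at 1, 3, 6 and 9 hr. Without WT mouse 87 the 9 hr difference was 1.13 with an adjusted p of 0.0503, and with no filter on low values the adjusted p was 0.069 at 6 hr and 0.0742 at 9 hr. Without WT mouse 88 the 3 hr difference was called (adjusted p = 0.0221), in 1 of the 8 fits that left out a mouse. Over those fits the number of all genes called at 3 hr ranged from 76 to 2584.

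*Il23a* was higher in *Cpeb4*-/- BMDMs while it declined. At 1 hr, its peak, the genotypes overlapped and differed by −0.16 ± 0.14 (adjusted p = 0.426, limma). At 3 hr the WT mice read 5.75, 5.67, 5.66 and 4.87 and the *Cpeb4*-/- mice 5.65, 6.60, 6.30 and 5.86, a difference of 0.62 ± 0.24 (adjusted p = 0.159) in which the lowest *Cpeb4*-/- mouse lay inside the WT range. At 6 hr the WT mice read 3.72, 3.82, 3.44 and 4.14 and the *Cpeb4*-/- mice 4.38, 4.69, 4.36 and 4.42, with no overlap. The difference was 0.68 ± 0.16 (1.6-fold, adjusted p = 0.0137), and 0.62 and 0.74 within batches 1 and 2. With no filter on low values its adjusted p was 0.0607. At 9 hr it was 0.34 ± 0.18 (adjusted p = 0.258).

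*Il12b* moved the other way, and less firmly. At 1 hr all 4 *Cpeb4*-/- mice were above all 4 WT mice (10.70, 11.07, 10.86 and 10.67 against 10.61, 10.40, 10.50 and 10.60), a difference of 0.30 ± 0.09 that was not called (adjusted p = 0.0842, limma). At 6 hr the WT mice read 11.40, 11.54, 11.52 and 11.58 and the *Cpeb4*-/- mice 10.87, 11.43, 11.21 and 10.39. Here 3 of the 4 *Cpeb4*-/- mice were below every WT mouse and mouse 3 was not. The difference was −0.53 ± 0.17 (0.691-fold, adjusted p = 0.0451), and −0.58 and −0.49 within batches 1 and 2. The adjusted p rose to between 0.0656 and 0.11 without WT mouse 25, 69, 87 or 88 or *Cpeb4*-/- mouse 2. Without *Cpeb4*-/- mouse 62 the difference was smaller, −0.34 (adjusted p = 0.0469). The adjusted p was also above 0.05 without the filter (0.206), without the trend (0.119), with batch as a term (0.061) and after quantile normalization (0.052). At 9 hr the WT mice read 9.38, 9.63, 9.33 and 9.20 and the *Cpeb4*-/- mice 8.47, 9.42, 8.88 and 8.10, a difference of −0.67 ± 0.23 (adjusted p = 0.0963). Without *Cpeb4*-/- mouse 3 it was −0.90 ± 0.16 (adjusted p = 0.0178), called in 1 of the 8 fits that left out a mouse. Over those fits the number of all genes called at 9 hr ranged from 387 to 4575.

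*Il12b* lies on the same chromosome as the targeted gene, 12.5 megabases away. In mice of a mixed background, a stretch around a targeted gene can come from the strain of the stem cells, so an effect of *Cpeb4* on *Il12b* and one of a linked difference cannot be told apart here. Of the genes that lie between *Cpeb4* and *Il12b*, 0 of 24 tested were called at 0 hr by limma (1.31% of all genes were) and 4 of 23 at 6 hr (17.4%, against 16.3% of all genes). At 9 hr 0 of 23 were called (7.91% of all genes).

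*Il27* was called lower in *Cpeb4*-/- BMDMs at 6 hr only, but the difference was not confined to the decline. At 1 hr the WT mice read 9.97, 9.85, 10.16 and 10.06 and the *Cpeb4*-/- mice 9.77, 9.72, 9.83 and 9.71, with no overlap. That difference was −0.26 ± 0.07 and was not called (adjusted p = 0.0743, limma). At 3 hr the WT mice read 13.20, 12.83, 13.21 and 12.72 and the *Cpeb4*-/- mice 12.56, 12.62, 12.87 and 12.57, which overlap (−0.34 ± 0.12, adjusted p = 0.125, limma). At 6 hr the WT mice read 12.10, 12.37, 12.24 and 12.48 and the *Cpeb4*-/- mice 11.72, 11.83, 11.91 and 11.68, which do not. The difference was −0.51 ± 0.08 (0.7-fold, adjusted p = 0.00121), and −0.54 and −0.49 within batches 1 and 2. At 9 hr it was −0.33 ± 0.11 (adjusted p = 0.0928), with all 4 *Cpeb4*-/- mice below all 4 WT mice (10.11, 10.08, 10.11 and 9.80 against 10.37, 10.66, 10.27 and 10.13). *Apobr*, which overlaps *Il27* on the other strand, was also lower at 6 hr, by a smaller amount (−0.31 ± 0.04, adjusted p = 0.000755), and stood at 12.5 ± 0.1 in untreated WT cells, where *Il27* stood at 8.22 ± 0.04. Its part in the values of *Il27* was not tested.

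*Ebi3* was lower in *Cpeb4*-/- BMDMs before LPS and after it. In untreated cells the WT mice read 10.51, 10.54, 10.62 and 10.58 and the *Cpeb4*-/- mice 10.29, 10.19, 10.34 and 10.26. The groups did not overlap, and the difference was −0.29 ± 0.05 (0.816-fold, adjusted p = 0.0171, limma). It was −0.30 ± 0.06 at 1 hr (adjusted p = 0.0479) and −0.26 ± 0.09 at 3 hr (adjusted p = 0.128). At 6 hr the WT mice read 12.73, 12.65, 12.78 and 12.69 and the *Cpeb4*-/- mice 12.37, 12.35, 12.46 and 12.34, a difference of −0.33 ± 0.04 (0.794-fold, adjusted p = 0.000601). At 9 hr the WT mice read 12.43, 12.45, 12.52 and 12.33 and the *Cpeb4*-/- mice 11.91, 11.85, 12.05 and 11.83, a difference of −0.52 ± 0.06 (0.696-fold, adjusted p = 0.00173). Within batches 1 and 2 it was −0.32 and −0.26 at 0 hr, −0.36 and −0.30 at 6 hr and −0.54 and −0.50 at 9 hr. The call at 0 hr was lost without *Cpeb4*-/- mouse 2, 3 or 62 (adjusted p of 0.0539 to 0.0705). That at 1 hr was lost without WT mouse 25, 87 or 88 or *Cpeb4*-/- mouse 3, 55 or 62 (adjusted p of 0.0625 to 0.159). It was also lost without the filter, without the trend, with batch as a term and after quantile normalization (0.0514 to 0.0961).

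**Figure D3:**
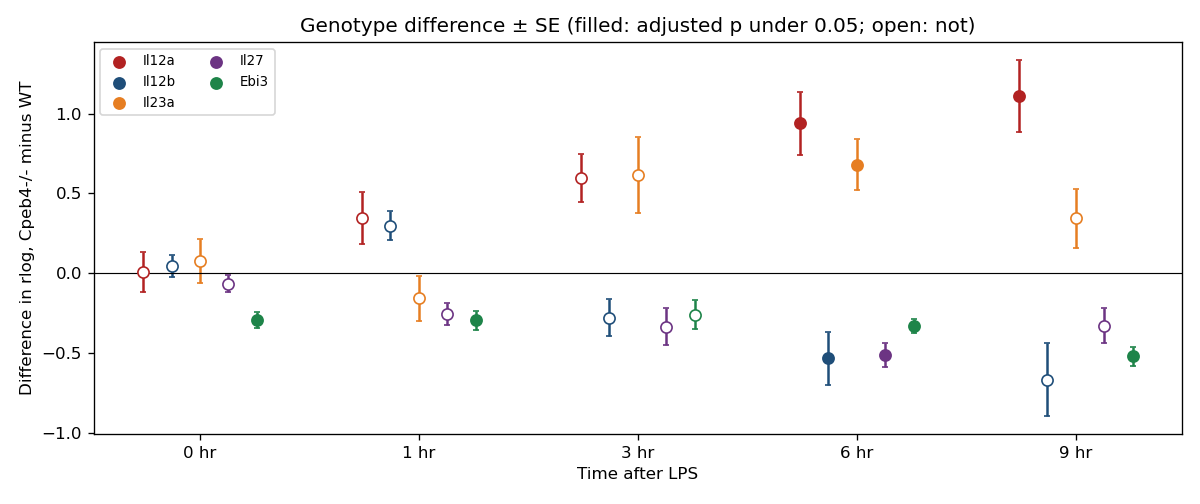
The difference in rlog between *Cpeb4*-/- and WT BMDMs is plotted for each subunit and time with its SE, filled where the adjusted p (limma) was under 0.05. All 5 are filled at 6 hr, with *Il12a* (0.94) and *Il23a* (0.68) above 0 and *Il12b* (−0.53), *Il27* (−0.51) and *Ebi3* (−0.33) below it.

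Whether the response to LPS itself differed between genotypes was tested as the interaction of genotype and time over the 40 libraries. Of the 5 subunits, 1 was called at 9 hr against 0 hr, *Il12a* (1.10 ± 0.28, adjusted p = 0.0274, limma), where 1.76% of 13103 genes were. Its adjusted p was between 0.0537 and 0.0978 without WT mouse 25, 69, 87 or 88 or *Cpeb4*-/- mouse 3, 55 or 62, and 0.0353 without *Cpeb4*-/- mouse 2. None was called at 1 hr (0.00763% of genes), 3 hr (0.206%) or 6 hr (2.94%) against 0 hr. With the mouse as a block, which removes differences between mice that are shared by all times, the call for *Il12a* at 9 hr was kept (adjusted p = 0.0036) and that at 6 hr was gained (0.93 ± 0.23, adjusted p = 0.0108). Without *Cpeb4*-/- mouse 3, *Il12b* was called at 9 hr against 0 hr (−0.90, adjusted p = 0.0226). *Il12b* was also called with the block at 6 hr (−0.58 ± 0.16, adjusted p = 0.0256) and 9 hr (−0.72 ± 0.16, adjusted p = 0.00805), *Il27* at 6 hr (−0.45 ± 0.14, adjusted p = 0.042) and *Ebi3* at 9 hr (−0.23 ± 0.07, adjusted p = 0.0396). *Il23a* was not called in either fit. The block raised the number of genes called from 385 to 1032 at 6 hr and from 231 to 654 at 9 hr against 0 hr.

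The changes within mice show the same values without a model. From 0 to 9 hr *Il12a* changed by 1.92 on average in WT and by 3.02 in *Cpeb4*-/-, with no overlap between the mice. From 0 to 6 hr *Il12b* changed by 4.31 in WT and by 3.73 in *Cpeb4*-/-, again with no overlap. From 1 to 3 hr *Il12b* gained 1.05 ± 0.15 (SD) in WT and 0.48 ± 0.13 in *Cpeb4*-/-, and the mice did not overlap, but the interaction of that step was not called (adjusted p = 0.55, limma, or 0.102 with the block, where 0.13% of all genes were called without it). *Ebi3* changed by 2.15 in WT and by 2.11 in *Cpeb4*-/- from 0 to 6 hr, an interaction of −0.04 ± 0.09. From 6 to 9 hr it dropped by 0.28 ± 0.07 (SD) in WT and by 0.47 ± 0.05 in *Cpeb4*-/-, with no overlap between mice, and that interaction was not called (adjusted p = 0.342, limma, or 0.0875 with the block, where 1.92% of all genes were called without it).

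Because the cytokines are dimers, partner subunits were also set against each other within each library, as a difference of rlog values. This quantity shifts by a constant with gene length, so only its course and its genotype difference are read, and no test was run on it. *Il12b* minus *Il12a*, the partners of IL-12, stood at 7.23 ± 0.29 for WT and 7.18 ± 0.19 for *Cpeb4*-/- libraries after 1 hr. By 6 hr the WT libraries stood at 5.53 ± 0.25 and the *Cpeb4*-/- libraries at 4.06 ± 0.24, and by 9 hr at 4.51 ± 0.24 and 2.73 ± 0.29. The libraries of the genotypes did not overlap at either time (5.24 to 5.85 against 3.79 to 4.26, and 4.26 to 4.81 against 2.32 to 2.98). At 3 hr the ranges were already apart (5.50 to 5.82 in WT against 4.69 to 4.94 in *Cpeb4*-/-). The difference of *Il12b* minus *Il12a* was thus smaller in *Cpeb4*-/- libraries at 3, 6 and 9 hr. It combines the genotype differences of the 2 genes given above and is not a further result. Low genes such as *Il12a* are shrunk by the transformation, so its size is not read as a ratio of mRNAs.

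*Il12b* minus *Il23a*, the partners of IL-23, was lowest in WT at 1 hr (3.69 ± 0.21), when *Il23a* peaked, and highest at 6 hr (7.73 ± 0.26). In *Cpeb4*-/- the values were 4.14 ± 0.22 and 6.51 ± 0.39, so that the genotypes lay in opposite order at these times, with no overlap at 1 hr or 6 hr. WT libraries were also above *Cpeb4*-/- libraries at 3 hr (5.77 to 6.95 against 4.88 to 5.52) and 9 hr (5.86 to 6.46 against 4.87 to 5.51). *Ebi3* minus *Il27*, the partners of IL-27, was 2.34 ± 0.06 in untreated WT cells, −0.79 ± 0.06 at 3 hr and 2.08 ± 0.21 at 9 hr. In *Cpeb4*-/- it was 2.12 ± 0.06, −0.71 ± 0.06 and 1.88 ± 0.12. The libraries of the genotypes did not overlap in untreated cells (2.29 to 2.41 in WT against 2.07 to 2.19) and overlapped at 3 and 9 hr. Both genes of this pair were lower in *Cpeb4*-/- libraries at 6 hr. *Ebi3* minus *Il12a*, the partners of IL-35, stood at 7.55 ± 0.29 for WT and 5.92 ± 0.49 for *Cpeb4*-/- libraries by 9 hr. The genotypes were already apart in untreated cells (7.45 to 7.67 in WT against 7.24 to 7.34) and did not overlap at any later time.

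**Figure D4:**
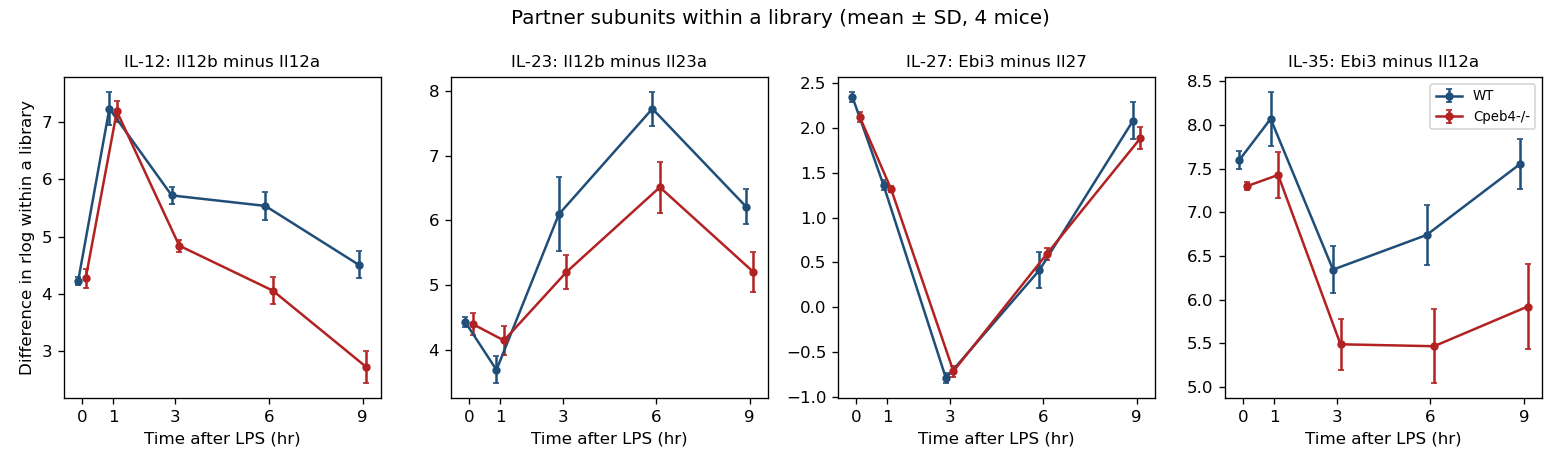
The difference in rlog between the partner subunits of each cytokine within a library is plotted against hours of LPS as the mean ± SD of 4 mice. At 9 hr the IL-12 pair stood at 4.51 in WT (blue) and 2.73 in *Cpeb4*-/- (red), and the IL-27 pair at 2.08 and 1.88.

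The receptors of the family were measured in the same cells. *Il12rb1* (IL-12Rβ1, shared by the IL-12 and IL-23 receptors) rose in WT from 3.38 ± 0.15 to 5.65 ± 0.53 at 6 hr (adjusted p = 1.35e-14, limma). *Il23r*, the IL-23 specific chain, rose from 1.45 ± 0.02 to 4.27 ± 0.47 (adjusted p = 2.54e-16). Its untreated level was under the filter value of log2 of 5, where values are strongly shrunk, so the small SD is not a measure of precision. It was not tested between genotypes at 0, 1 or 3 hr. *Il27ra*, the IL-27 specific chain, fell by 0.53 on the log2 scale by 6 hr (adjusted p = 1.14e-05). *Il6st*, which encodes the gp130 chain that IL-27 shares with IL-6, fell by 0.97 (adjusted p = 6.5e-11). *Il12rb2*, which encodes IL-12Rβ2, the other chain of the IL-12 receptor, changed by −0.02 (adjusted p = 0.919). Of the 5 receptors, 1 was called between genotypes at 6 hr, *Il12rb2*, which was lower in *Cpeb4*-/- (−0.39, adjusted p = 0.0262), and none at 9 hr. Of all genes, 9.92% were called lower at 6 hr, so that 1 of 5 lies near that share. *Il12rb1* at 6 hr differed by −0.70 (adjusted p = 0.0537) and *Il23r* by −0.57 (adjusted p = 0.124). *Il27ra* differed by 0.12 (adjusted p = 0.457) and *Il6st* by −0.02 (adjusted p = 0.899).

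Genes known to act on the family were described list by list, to be read against 6.4% of all genes called higher and 9.92% called lower at 6 hr, and 4.69% and 3.22% at 9 hr. Of 6 kinases and STATs used by the receptors, 3 were called lower in *Cpeb4*-/- at 6 hr, *Stat4* (−0.45), *Tyk2* (−0.41) and *Stat3* (−0.21), and none at 9 hr, with median differences over the list of −0.18 and 0.04. Of 15 transcription factors, 2 were called higher at 6 hr and 5 lower (median −0.14). Those with the largest differences were *Batf3* (0.54), *Irf5* (−0.31), *Jun* (−0.27) and *Nfkb1* (0.21). At 9 hr *Fos* (0.40) was called higher and *Spi1* (−0.30) and *Rela* (−0.25) lower. Of 8 genes that repress members of the family, 5 were called lower at 6 hr and none higher (median −0.23), among them *Il10* (−0.78), which encodes a cytokine that suppresses *Il12b*, *Etv3* (−0.63), *Bcl6* (−0.42) and *Nfil3* (−0.23). None of the 8 was called at 9 hr (median −0.08). Of 9 factors of mRNA decay and stability, a list that includes *Cpeb4*, 1 was called higher at 6 hr, *Zfp36l1* (0.19), and 2 lower, the targeted gene *Cpeb4* itself and *Zfp36* (−0.23), which encodes the AUUUA-binding protein TTP. At 9 hr *Zfp36l1* (0.35) and *Zfp36l2* (0.29), its relatives, were called higher. The median difference over all genes tested was −0.02 at 6 hr and 0.00438 at 9 hr.

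Over the 40 libraries, each subunit was compared with the 13103 genes of the time-course fit by Pearson's r, which describes shared courses in libraries that share mice and times. The genes most like *Il12a* were *D16Ertd472e* (r = 0.974), *Itgb8* (0.97), *Has1* (0.969) and *Pdgfrb* (0.968). For *Il12b* they were *Ccl3* (0.975), *Vps37c* (0.973), *Gm6377* (0.969) and *Stx11* (0.967). For *Il23a* they were the chemokine gene *Cxcl1* (0.984), *Gem* (0.965), *Lif* (0.964) and *Tnfsf9* (0.963). For *Il27* they were *Rab12* (0.989), *Map3k8* (0.987), *Peli1* (0.986) and *Sbds* (0.982), and for *Ebi3* they were *Ikbke* (0.981), *Dnaja1* (0.981), *Tifa* (0.978) and *Slc39a1* (0.977). Between subunits, r ranged from 0.0829 for *Il12a* and *Il23a* to 0.877 for *Il12b* and *Il27*. The partners reached 0.625 (*Il12a* and *Il12b*), 0.699 (*Il12b* and *Il23a*), 0.832 (*Il27* and *Ebi3*) and 0.834 (*Il12a* and *Ebi3*).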

How the data were processed

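The authors sequenced poly(A)-selected RNA, aligned it with STAR 2.3.0e to mm10, counted genes with featureCounts and deposited DESeq2 rlog values (log2) for 27179 genes in 40 libraries, per the labels and the study's methods. Library size correction and shrinkage were applied by the authors, and read depth was not analysed here. No column of values lay outside the 40 samples (0 such columns), and 0 pairs of libraries were identical. Genotypes were compared at each time with limma 3.58.1 (R 4.3.3; trended eBayes) on 8 libraries, and times and the interaction in 1 fit of 40 libraries. Genes whose average rlog reached log2 of 5 were tested, with Benjamini-Hochberg adjustment over all of them. The fits were also run on simulated data in which libraries varied independently, with no effect shared by the libraries of a mouse. That run therefore cannot show how the fit without a block behaves on libraries paired by mouse.

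Libraries of a mouse deviated together (median r = 0.29 over 80 pairs, of which 68 exceeded 0.1, against −0.0907 over 240 pairs of different mice), and come from the same animal, so the mouse number pairs them. Values were centred on the mean of each group of 4 mice, which by itself lowers r between different mice. The −0.0907 is therefore not an independent baseline. Genotypes share no mouse. Named were the 5 subunits, *Cpeb4*, every expressed receptor, per list at most 4 genes called at 6 or 9 hr with the largest difference, and the 4 genes most correlated with each subunit. *Apobr* and the stretch between *Cpeb4* and *Il12b* were added after values were seen. Members and lists were chosen with earlier results of these data known. Transcript lengths and 3′-UTRs came from GENCODE M21. Alternatives were no filter, a filter at an average rlog of 5, eBayes with a constant prior variance, quantile normalization, batch as covariate, 1 fit of 40 libraries with or without the mouse as a block, the libraries of 1 genotype alone, and leaving out each mouse.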

Additional observations from a re-analysis of the deposited data

Results flagged for a closer look

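The interaction of genotype and time for *Il12a*, 9 hr against 0 hr, passed the threshold (1.10 on the log2 scale, adjusted p = 0.0274, limma, 40 libraries), where *Il12a* rose by 1.92 in WT and by 3.02 in *Cpeb4*-/-. Its adjusted p was 0.0353 to 0.0978 with 1 mouse left out, and was under 0.05 in 1 of these 8 fits, that without *Cpeb4*-/- mouse 2. In 2 of 50 groups of 4 mice, 1 library lay apart from the other 3 by Dixon's ratio, where chance gives about 1 in 20. *Il23a* at 3 hr in WT read 4.87 in mouse 88, below the other 3 (ratio 0.899), and without that mouse the genotype difference of *Il23a* at 3 hr was 0.41 (adjusted p = 0.147, limma). *Il27* at 9 hr in *Cpeb4*-/- read 9.80 in mouse 62, below the other 3 (ratio 0.907), and without that mouse the genotype difference of *Il27* at 9 hr was −0.25 (adjusted p = 0.229, limma).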

How the results depend on the processing

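Each subunit's genotype, time and interaction results were recomputed under every alternative that could give a value. Of these values, 1387 kept their direction and their side of the 0.05 threshold, 29 passed it where the first value had not, 48 no longer passed and 19 changed sign. The cause of these changes was not tested, except that a fit without 1 mouse or without a filter has fewer libraries or more genes tested. The 1 hr difference of *Ebi3* was −0.30 without the filter (adjusted p = 0.0961), without the trend (0.0737) and with batch as a term (0.0672), and −0.31 after quantile normalization (0.0514). *Il12b* at 6 hr was −0.53 without the filter (adjusted p = 0.206), without the trend (0.119) and with batch (0.061), and −0.50 after quantile normalization (0.052). Without the filter, *Il12a* was 0.94 at 6 hr (adjusted p = 0.069) and 1.11 at 9 hr (0.0742), and *Il23a* was 0.68 at 6 hr (0.0607). *Il27* at 9 hr was −0.33 with batch (adjusted p = 0.0459). Signs turned after quantile normalization for *Il12a* at 0 hr (−0.0075) and for the *Ebi3* interactions of 1 hr (0.010) and 6 hr (0.10) with 0 hr, and none of these was called.

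A single limma fit over all 40 libraries, first without and then with the mouse as replicate block, called more differences. The genotype difference of *Ebi3* at 3 hr was −0.26 (adjusted p = 0.0103 and 0.00431), of *Il12a* at 3 hr 0.60 (0.0463 and 0.0393), of *Il12b* at 9 hr −0.67 (0.00687 and 0.00248), of *Il23a* at 3 hr 0.62 (0.0294 and 0.0314), of *Il27* at 3 hr −0.34 (0.0269 and 0.0352) and at 9 hr −0.33 (0.0187 and 0.027). *Il27* at 1 hr was −0.26 (0.0475) without the block alone.

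Over all genes, the genotype calls at 0, 1, 3, 6 and 9 hr numbered 171, 251, 481, 2129 and 1029. Without the filter they were 50, 53, 167, 1288 and 582. The 3 hr count was 230 without the trend, and batch as a term gave 146, 194 and 1781 for 1, 3 and 9 hr. In the 40-library fit the 0, 1, 3 and 9 hr counts were 326, 4182, 1311 and 2280, and with the block 414, 4323, 1393 and 2378. Interactions of 1, 3, 6 and 9 hr with 0 hr were called for 1, 27, 385 and 231 genes. With the block the last 3 counts were 72, 1032 and 654, and the steps to 3, 6 and 9 hr went from 17 to 77, 121 to 392 and 252 to 737. Quantile normalization gave 227 genes for 6 hr against 0 hr and 147 for 9 hr against 6 hr, and for the 1 hr interaction no filter gave 8 genes and an average rlog of 5 gave 0 (limma).

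At 3 hr, *Ebi3*, *Il12a* and *Il27* passed the threshold without WT mouse 88, *Il27* at 1 hr without WT mouse 69 and at 9 hr without *Cpeb4*-/- mouse 2. Each of these passed in 1 of the 8 fits at that time. The number of all genes called also moved widely between such fits, as the ranges later in this paragraph show. These calls are therefore not read as a result about the subunits. Leaving out each mouse in turn gave genotype differences for *Ebi3* at 0, 1 and 3 hr of −0.32 to −0.27, −0.34 to −0.26 and −0.32 to −0.20. For *Il12a* at 0, 3 and 9 hr the ranges were −0.037 to 0.039, 0.49 to 0.69 and 0.89 to 1.23. It was −0.69 to −0.34 at 6 hr and −0.90 to −0.46 at 9 hr for *Il12b*, and for *Il27* at 1, 3 and 9 hr −0.31 to −0.21, −0.43 to −0.26 and −0.41 to −0.23. Uncalled changes that turned sign were the *Ebi3* interactions of 1 hr (−0.040 to 0.024) and 3 hr (−0.038 to 0.11) with 0 hr and of 3 hr with 1 hr (−0.026 to 0.082), the *Il12a* interaction of 9 hr with 6 hr (−0.019 to 0.39), its WT change from 3 to 6 hr (−0.048 to 0.22), the *Il23a* interaction of 6 hr with 3 hr (−0.11 to 0.39) and the *Il27* interaction of 3 hr with 1 hr (−0.19 to 0.0019). Genotype calls over all genes ranged over 44 to 163, 40 to 2440, 76 to 2584, 1347 to 2331 and 387 to 4575 at 0, 1, 3, 6 and 9 hr. Interaction calls with 0 hr ranged over 0 to 2, 5 to 21, 84 to 391 and 89 to 226, and those of the steps to 3, 6 and 9 hr over 0 to 29, 19 to 99 and 50 to 198.

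The filter at an average rlog of 5 leaves out *Il12a* and *Il23a* in most fits, which then gave no value. The block changed no call of the subunits other than those given here and in the report. The rlog table holds no read counts, so depth per library was not analysed here and low genes such as *Il12a* are shrunk by the transform.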
